A study of Arabidopsis thaliana with 8 samples.

Results

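AT5G38910, AT5G38930, AT5G38940 and AT5G38960 are germin-like genes that lie close together on chromosome 5 of Arabidopsis thaliana. They were measured by 3 of the 22746 tested probe sets, which was every probe set named for any of these 4 genes. AT5G38910 and AT5G38960 each have a probe set of their own, while AT5G38930 and AT5G38940 share 1, so the signals of that pair cannot be told apart. AT5G38910 was chosen by its difference between the aha1 and aha2 mutants on these same arrays, and the other 3 as germin-like genes beside it. Values for aha1 against aha2 are therefore given as a description with no test, and the comparisons with wild type reuse the mutant arrays on which that choice was made. The annotation pairs these probe sets with locus tags only, so the family name is given here as background.

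Germin-like proteins belong to the cupin superfamily and are secreted to the cell wall space as stable glycoproteins that bind a metal ion. The germins of wheat and barley are oxalate oxidases, which release hydrogen peroxide in the cell wall, and some germin-like proteins have superoxide dismutase activity. The study compared seedlings mutated in one of a pair of plasma membrane proton pumps, AHA1 or AHA2, which move protons out of the cell into that same cell wall space.

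The 8 single-colour arrays held total RNA of whole light-grown seedlings of the Col background, 5 days old, grown upright on Murashige and Skoog medium. There were 2 wild type arrays, 3 aha1 arrays (2 of allele aha1-6 and 1 of aha1-7) and 3 aha2 arrays (2 of allele aha2-4 and 1 of aha2-5). A string in the sample descriptions divides them into a first set of 3 arrays, 1 per group, and a second set of 5, which holds 1 wild type array and 2 of each mutant. The labels give no separate cultures for the samples of a group, so the p-values speak only of how far these samples spread, and that spread may be technical. The kind of mutation in each allele is not given in the labels, and no probe set used here is named for AHA1 or AHA2, so the genotypes are taken from the labels without a check. In RNA of whole seedlings, fewer cells of a type and less RNA per cell cannot be told apart.

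The aha1-7 array stood apart from the rest. Over the 11373 brighter probe sets (the brighter 50% by mean over all arrays) the median of its correlations with the rest was 0.887, while the same value lay between 0.959 and 0.971 on the remaining 7. Short genes were low on it, and the 3 probe sets belong to short genes: at their lengths the trend with gene length was -0.45 on the log2 scale on aha1-7 and between -0.05 and 0.10 on the other arrays. The tests of AT5G38910 and of the shared probe set are given without it as well.

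The AT5G38910 signal was lowest in aha1, intermediate in wild type and highest in aha2. In the deposited linear units it was 386 and 327 on the wild type arrays, in the order of the sets. It was 157 and 214 on the aha1-6 arrays and 177 on the aha1-7 array. It was 868 and 1317 on the aha2-4 arrays and 762 on the aha2-5 array. The 3 groups did not overlap, the highest aha1 array lying below the lower wild type array and the lowest aha2 array above the higher wild type array. Wild type averaged 357 ± 41.9 (SD, n = 2), aha1 183 ± 28.8 (SD, n = 3) and aha2 983 ± 295 (SD, n = 3). The spread within aha2 came mainly from the aha2-4 array of the second set, which was the highest of all 8.

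Normalized log2 values gave the same order, with aha1 at 7.48 ± 0.30 (SD, n = 3), wild type at 8.46 ± 0.16 (SD, n = 2) and aha2 at 9.94 ± 0.40 (SD, n = 3). All fold changes below are on the log2(value + 1) scale after quantile normalization, from a limma fit with group and set as terms. For AT5G38910 in aha1 against wild type the log2 fold change was -1.02 (SE 0.30, 95% interval -1.75 to -0.28), or 2.02-fold lower. In aha2 against wild type it was 1.44 (SE 0.30, 95% interval 0.71 to 2.18), or 2.72-fold higher. Neither comparison passed the threshold of 0.05 after Benjamini-Hochberg adjustment over all 22746 probe sets (limma, adjusted p = 0.872 and 0.757, unadjusted p = 0.0147 and 0.00295). No probe set at all passed in either comparison (0% of 22746). An unadjusted p under 0.05 was found at 5.01% and 4.04%, about or below the share expected at that cut if no probe set differed. The difference between the mutants was -2.46 (SE 0.26), or 5.50-fold lower in aha1 than in aha2, and this is the contrast by which the gene was found.

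The call for aha2 depended on which probe sets and arrays entered the fit. With the fit limited to the brighter probe sets, the adjusted p for AT5G38910 in aha2 against wild type was 0.188, and 0.0264% of 11373 probe sets passed. For aha1 it was 0.778, and 0% passed. With the aha1-7 array left out as well, an alternative chosen after the data had been seen, the aha2 value was 1.44 (SE 0.22, limma, adjusted p = 0.0146). The 3 aha2 arrays all lay above the wild type array of their set. The same aha2 arrays had a part in choosing this gene, so the pass is not independent evidence of a change. In that fit 0.536% of the probe sets passed. The probe set shared by AT5G38930 and AT5G38940 was also in it and did not pass (limma, adjusted p = 0.770). AT5G38960 was too dim to enter it. The aha1 value of AT5G38910 in the same fit was -1.0 (SE 0.24, limma, adjusted p = 0.174), where 0.246% passed.

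**Figure D1:**
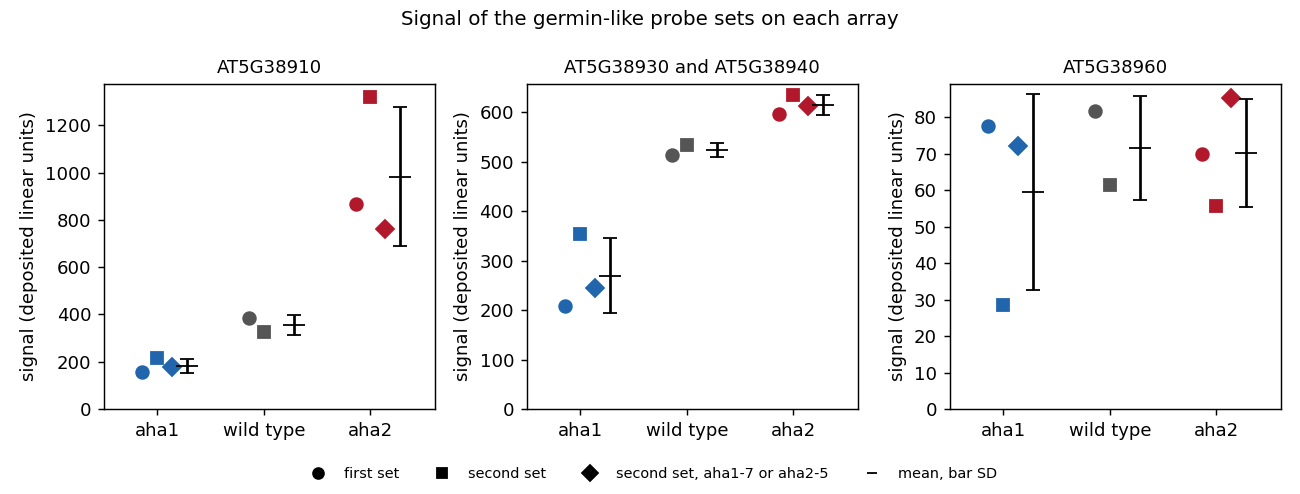
Signal in the deposited linear units (vertical axis, from 0) on each array for AT5G38910, for the probe set shared by AT5G38930 and AT5G38940, and for AT5G38960, with arrays grouped as aha1, wild type and aha2. Circles are arrays of the first set, squares of the second set and diamonds the aha1-7 and aha2-5 arrays, and horizontal ticks with bars are means with SD (n = 3, 2 and 3). AT5G38910 runs from 157 to 214 in aha1, 327 to 386 in wild type and 762 to 1317 in aha2, with no overlap, while the groups of AT5G38960 overlap.

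The probe set shared by AT5G38930 and AT5G38940 was also lowest in aha1, but stood close to wild type in aha2. Its signal was 514 and 534 on the wild type arrays, 208 and 355 on the aha1-6 arrays and 246 on aha1-7. On the aha2 arrays it was 597 and 636 for aha2-4 and 612 for aha2-5. The groups again did not overlap, and the 3 aha2 arrays lay within a narrow range just above the higher wild type array. Wild type averaged 524 ± 14.4 (SD, n = 2), aha1 270 ± 76.2 (SD, n = 3) and aha2 615 ± 19.8 (SD, n = 3).

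The shared probe set was 2.09-fold lower in aha1 than in wild type, a log2 fold change of -1.06 (SE 0.25, 95% interval -1.66 to -0.46). It did not pass (limma, adjusted p = 0.776, unadjusted p = 0.00514). Among the brighter probe sets without aha1-7 the value was -1.0 (SE 0.20, adjusted p = 0.0814). In aha2 the log2 fold change against wild type was 0.24 (SE 0.25, 95% interval -0.36 to 0.85, limma, adjusted p = 0.9998). That interval covers a decrease and no difference as well as an increase. The mutants differed by -1.30 (SE 0.22), or 2.47-fold, given as a description.

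AT5G38960 was a dim probe set with no separation of the groups. It lay outside the brighter 50%, which the other 2 probe sets were within. Its signal was 81.7 and 61.5 in wild type, 77.8, 28.6 and 72.1 in aha1 (the last being aha1-7) and 70.0, 55.6 and 85.3 in aha2 (the last being aha2-5). The groups overlapped in every comparison, and 1 array, aha1-6 of the second set, lay far below the others. The log2 fold change was -0.41 (SE 0.44, 95% interval -1.49 to 0.68) in aha1 and 0.07 (SE 0.44, 95% interval -1.02 to 1.15) in aha2 (limma, adjusted p = 0.937 and 0.9998). Without that low array the aha1 value was -0.01. The aha1 interval also covers the estimates of the other 2 probe sets (-1.02 and -1.06), so a decrease of that size in aha1 was not detectable at this signal and number of arrays. The aha2 interval ends below the AT5G38910 estimate of 1.44, although the interval of that estimate (0.71 to 2.18) overlaps it.

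In the comparison of aha1 with wild type, 2 of the 3 probe sets were lower without overlap, where 8.82% of all probe sets were. In aha2 against wild type, 2 of 3 were higher without overlap, beside 10.7% of all probe sets. For aha1 against aha2, the contrast behind the choice, 2 of 3 were lower without overlap, beside 8.09% of all. AT5G38910 is in each of these counts and was chosen by its difference between the mutants on these arrays. That choice makes separation from wild type more likely beforehand, so the counts and the order below are descriptions only. The complete order seen for AT5G38910 and the shared probe set, every aha1 array below both wild type arrays and these below every aha2 array, was found at 199 of the 22746 probe sets (0.875%), and the reverse order at 189 (0.831%). Both lie in the brighter 50%, where the order was found at 156 of 11373 probe sets (1.37%) and its reverse at 145 (1.27%). The order was thus about as frequent as its reverse.

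Set against the wild type array of its own set, each mutant array gave the same picture for AT5G38910. The log2 differences in aha1 were -1.41 and -0.61 for aha1-6 and -0.82 for aha1-7. In aha2 they were 1.23 and 2.03 for aha2-4 and 1.27 for aha2-5. Every array of a mutant, of either allele, therefore lay on the same side of wild type, although each second allele had a single array. The aha1-7 values here and below include the trend with gene length. At the lengths of the 3 probe sets it was -0.45 on that array and -0.03 on the wild type array of its set. The shared probe set gave -1.42 and -0.60 for aha1-6, -1.06 for aha1-7, 0.27 and 0.33 for aha2-4 and 0.25 for aha2-5. In aha1 it followed AT5G38910 closely on both aha1-6 arrays, and in aha2 it remained below it on every array. AT5G38960 had both signs in each mutant, from -1.09 to 0.26 in aha1 and from -0.37 to 0.42 in aha2. With the trend with gene length removed from every array, AT5G38910 stood at -0.90 in aha1 and 1.35 in aha2 against wild type, and the shared probe set at -0.94 and 0.15.

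**Figure D2:**
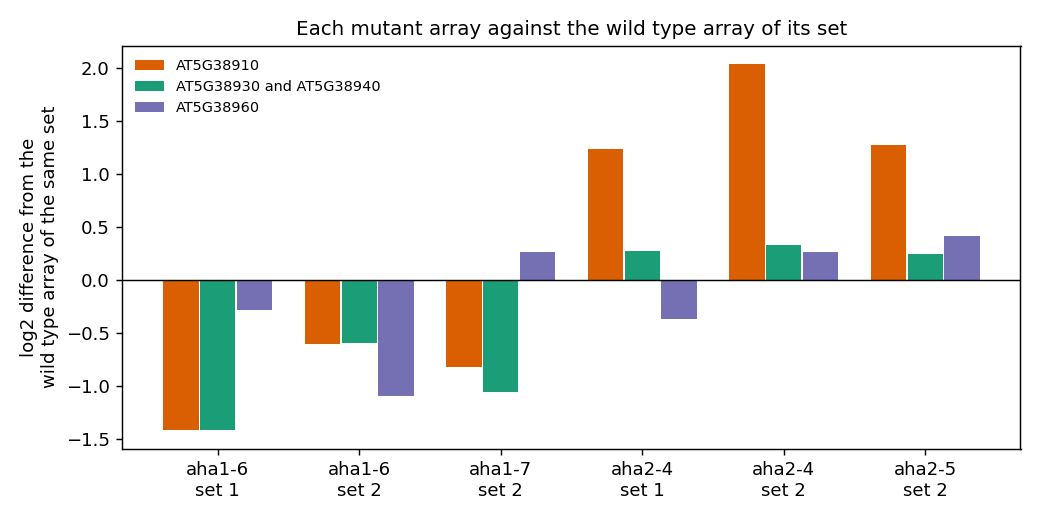
Log2 difference of each mutant array from wild type in its own set (vertical axis) for AT5G38910 (orange), the AT5G38930 and AT5G38940 probe set (green) and AT5G38960 (violet), 1 bar per array and probe set. AT5G38910 lies between -1.41 and -0.61 on the aha1 arrays and between 1.23 and 2.03 on the aha2 arrays, and the shared probe set lies between 0.25 and 0.33 on the aha2 arrays.

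The members can also be set against each other on one array, which takes out whatever scales a whole array. A difference between probe sets depends on the probes, so only its variation from array to array is read here, and it is given as a description. The log2 value of AT5G38910 minus that of the shared probe set was -0.41 and -0.70 in wild type and -0.41, -0.71 and -0.46 in aha1. It was 0.55, 1.01 and 0.32 in aha2. The aha1 arrays thus lay close to the wild type values, and every aha2 array lay above both groups. In the fitted values the difference was 0.05 higher in aha1 than in wild type and 1.20 higher in aha2. Over 16 alternatives these values ran from -0.09 to 0.16 and from 0.99 to 1.34. Over the 8 arrays, which share their groups and sets, the log2 values of AT5G38910 and the shared probe set correlated at r = 0.90 (0.88 over 7 arrays without aha1-7). AT5G38960 correlated with them at 0.34 and 0.20 (0.44 and 0.31 without aha1-7), given as descriptions of these arrays.

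In the RefSeq table of assembly TAIR10.1 the cluster spans 6 genes from AT5G38910 to AT5G38960, with AT5G38920 and AT5G38950 between the members. AT5G38960 is followed by BR6OX1, a brassinosteroid-6-oxidase that acts in the synthesis of brassinosteroid hormones, for which no probe set was used here. On the other side AT5G38910 is separated from AT5G38900 by a tRNA gene only. Of 25 genes between AT5G38800 and AT5G39000 by locus number, 13 had a probe set named for them alone, 2 of them members.

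AT5G38900, which earlier results of these arrays had also named, was high in aha2, as AT5G38910 was, but was not low in aha1. Its signal was 351 and 270 in wild type, 340, 307 and 278 in aha1 and 823, 726 and 733 in aha2. The aha1 arrays lay inside the wild type range, and all 3 aha2 arrays far above it. The log2 fold change was 0.02 (SE 0.17) in aha1 (limma, adjusted p = 0.991) and 1.40 (SE 0.17) in aha2 (limma, adjusted p = 0.320). Among the brighter probe sets the aha2 value passed (limma, adjusted p = 0.0482), where 0.0264% of probe sets did. It also passed with aha1-7 left out too (limma, adjusted p = 0.00122), where 0.536% did. Because these same arrays had already named AT5G38900, neither pass is a fresh test of it. The tables used here give this gene no name or role.

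Within each array, the log2 value of AT5G38910 minus that of AT5G38900 was 0.14 and 0.29 in wild type and 0.08, 0.82 and 0.06 in aha2. In aha1 it was -1.16, -0.50 and -0.62, below every wild type and aha2 array. In the fitted values this difference was 1.04 lower in aha1 than in wild type (-1.04) and 0.04 higher in aha2. Over 16 alternatives these values ran from -1.21 to -0.89 and from -0.14 to 0.24. AT5G38900 is the longer gene, at 2208 bases against 985, so the trend with gene length need not cancel between the 2 genes. With that trend removed the values were -0.95 and -0.04. The signals of AT5G38910 and AT5G38900 therefore differed from wild type by similar amounts in aha2 and by unequal amounts in aha1. With the shared probe set it was the other way round: similar amounts in aha1 and unequal amounts in aha2. These relations were described and not tested.

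**Figure D3:**
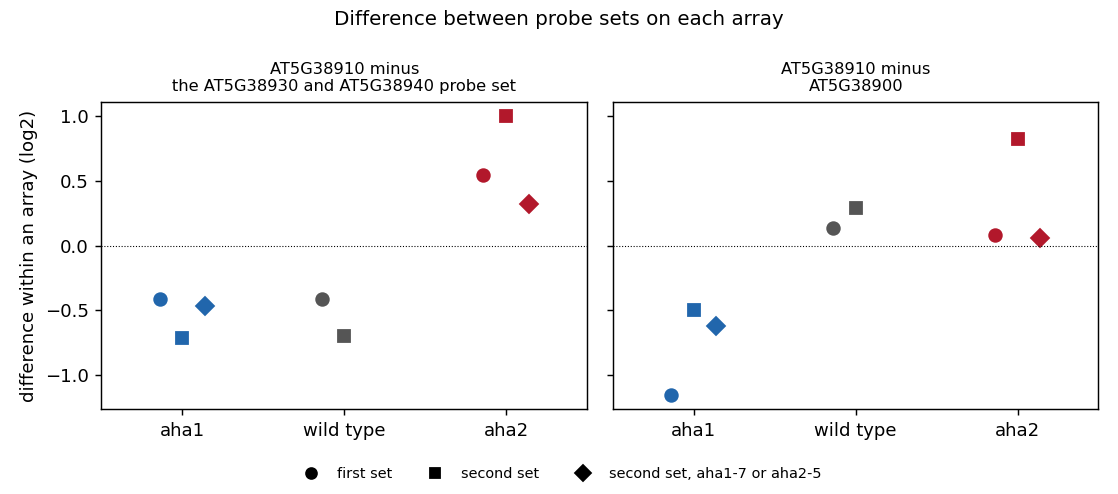
Log2 value of AT5G38910 minus that of the AT5G38930 and AT5G38940 probe set (left) and minus that of AT5G38900 (right), 1 point per array, with arrays grouped as aha1, wild type and aha2 and symbols marking the set and the second alleles. On the left the aha2 arrays (0.32 to 1.01) lie above all others, and on the right the aha1 arrays (-1.16 to -0.50) lie below all others.

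The other 10 neighbours with a probe set of their own were bZIP43, a bZIP transcription factor, AT5G38820, AT5G38830, AT5G38840, AT5G38850, AT5G38870, AT5G38890, AT5G38895, AT5G38950 and AT5G38980. None passed in the fit over all probe sets (limma, 0 of 10 in each comparison with wild type, also 0 at an unadjusted p under 0.05). Their log2 fold changes ran from -0.31 to 1.08 in aha1 (median -0.08) and from -0.44 to 1.08 in aha2 (median 0.06). The high ends came from dim probe sets, and the 5 brighter neighbours ran from -0.31 to 0.28 in aha1 and from -0.21 to 0.10 in aha2. The brighter neighbours thus lay nearer to wild type than AT5G38910 did in both mutants.

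**Figure D4:**
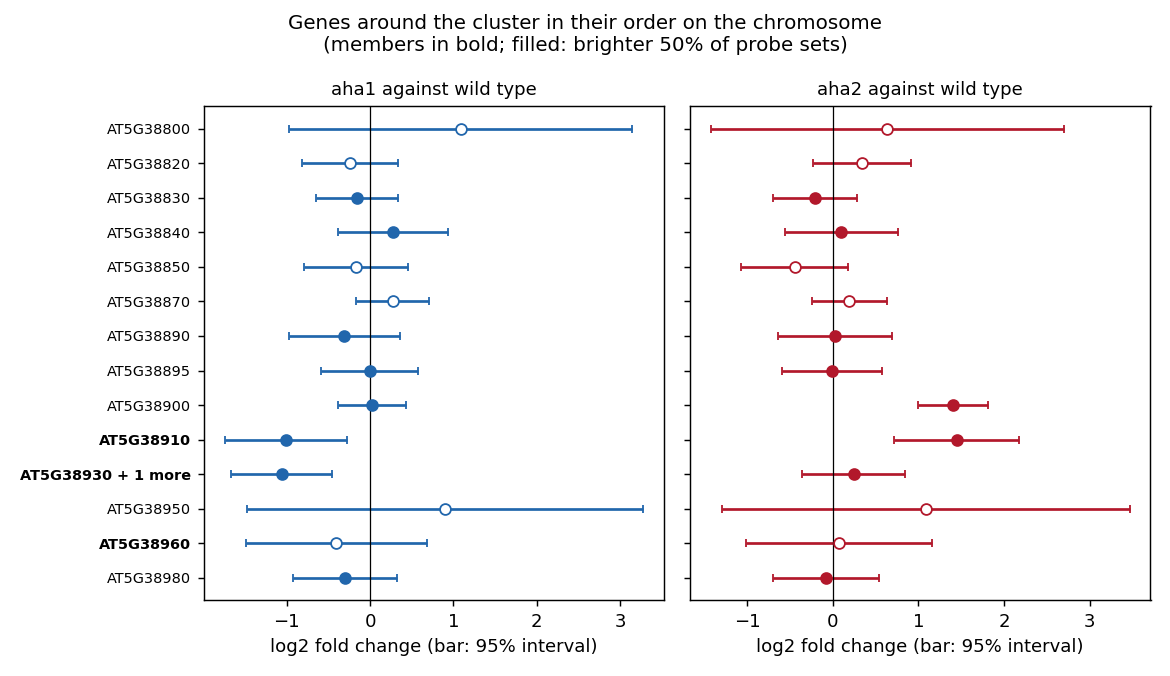
Log2 fold change against wild type (horizontal axis, 95% interval as bar) in aha1 (left) and aha2 (right) for the genes around the cluster, from top to bottom in their order on the chromosome, with the members in bold and the brighter 50% of probe sets filled. AT5G38900 and AT5G38910 stand at 1.40 and 1.44 in aha2, and AT5G38910 and the AT5G38930 and AT5G38940 probe set at -1.02 and -1.06 in aha1, while the brighter neighbours lie near 0.

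Outside the cluster, 28 further genes were listed as germin-like, some of them at locus numbers soon after AT5G39000. They were measured by 12 probe sets, 2 of which were in the brighter 50%. The list was drawn up with earlier results of these arrays known. None of the 12 passed in either comparison with wild type (limma, 0 of 12 in each, with 0 in aha1 and 1 in aha2 at an unadjusted p under 0.05). In aha1 6 were higher and 6 lower, with a median log2 fold change of 0.07 against 0.00 for all probe sets. Single arrays moved that median, to -0.41 without the aha1-6 array of the first set, to -0.09 without the wild type array of that set and to 0.14 without aha1-7. In aha2 the split was again 6 and 6, with a median of -0.0047 beside -0.01 for all probe sets. Single arrays moved this median too, between -0.19 without the wild type array of the first set and 0.11 without the aha2-4 array of that set. The summed signal of the 10 probe sets that name 1 gene, most of it from AT1G18980 and AT3G10080, was 2567 to 3439 in aha1, 3611 to 3644 in wild type and 4182 to 4894 in aha2, without overlap. The groups of AT1G18980 were separate in that order, while those of AT3G10080 overlapped. The sums therefore do not show an order shared by the listed genes. The lowest aha1 sum was that of aha1-7, and the other aha1 sums were 3060 and 3439.

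AT1G18980 was the listed germin-like gene outside the cluster whose pattern resembled that of AT5G38910. Its signal was 1787 and 1523 in wild type, 1311, 1270 and 852 in aha1 and 2568, 2874 and 2177 in aha2. The groups did not overlap and had the order aha1, wild type, aha2, with the aha1-7 array lowest. The log2 fold change was -0.55 (SE 0.26) in aha1 and 0.65 (SE 0.26) in aha2, and neither passed (limma, adjusted p = 0.937 and 0.9998, unadjusted p = 0.0778 and 0.0441). Among the brighter probe sets without aha1-7 these values were -0.37 (SE 0.17) and 0.64 (SE 0.15). Neither passed there (limma, adjusted p = 0.461 and 0.129). Between the mutants the log2 fold change over all arrays was -1.20 (SE 0.23, limma, adjusted p = 0.298). Among the brighter probe sets without aha1-7, the fit added after the data had been seen, it was -1.01 (SE 0.15). It passed there (limma, adjusted p = 0.00722), where 3.15% of probe sets did. AT1G18980 was named by its mean signal but is set apart here for this same pattern, so the contrast is not an independent test of it. AT3G10080, the other listed gene among the brighter probe sets, had overlapping groups, with wild type at a mean signal of 1631 ± 137 (SD, n = 2), aha1 at 1448 ± 151 (SD, n = 3) and aha2 at 1565 ± 246 (SD, n = 3). The next by mean signal, AT3G04150, AT3G05950, AT1G74820 and the probe set of AT5G39110, AT5G39120, AT5G39150 and AT5G39180, were dim, with means over all arrays between 52.6 and 106.

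**Figure D5:**
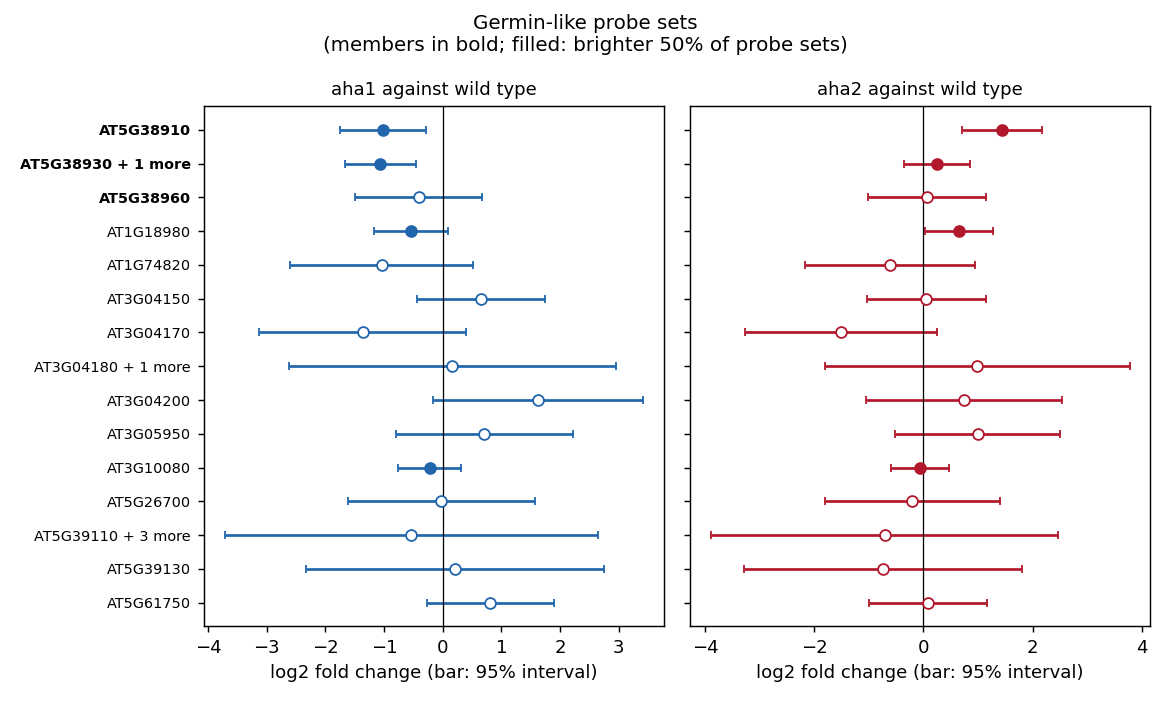
Log2 fold change against wild type (horizontal axis, 95% interval as bar) in aha1 (left) and aha2 (right) for the 3 probe sets of the cluster (bold) and the 12 of the other listed germin-like genes, with the brighter 50% of probe sets filled. AT1G18980 stands at -0.55 and 0.65 and AT3G10080 at -0.22 and -0.06, and most of the others are dim, with intervals that cross 0.

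Enzymes that handle the same oxygen species were hardly covered. None of the 7 listed superoxide dismutases, which turn superoxide into hydrogen peroxide, had a named probe set here. Of 10 respiratory burst oxidases, which make superoxide at the plasma membrane, 3 were measured (AT4G25090, AT4G11230 and AT1G19230), all dim. None of the 3 passed (limma, 0 also at an unadjusted p under 0.05), and their median log2 fold changes were -0.15 in aha1 and -0.30 in aha2. The aha1 median was 0.01 without aha1-7 and -0.34 without the aha1-6 array of the second set, so it has no settled sign.

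Markers of seedling parts were read beside these results. Both tissues of a whole seedling were represented, the shoot by 1 gene only. Of 9 listed shoot markers 1 was measured, RCA (Rubisco activase, a chloroplast protein), at 35270 to 57927 signal units. Of 7 root markers 3 were measured, PYK10 among them, at summed signals of 26005 to 41295 over all arrays. The root sums overlapped between groups, at 31239 to 34647 in wild type, 29716 to 41295 in aha1 and 26005 to 35772 in aha2, and PYK10 made up nearly all of them. Against wild type the root markers had a median log2 fold change of -0.35 in aha1 and 0.08 in aha2, and between aha1 and aha2 it was -0.46. PYK10 differed between the mutants by 0.16, AT1G12080 by -0.46 and AT2G39430 by -0.56, and none of the 3 passed. The last pair thus had the direction of AT5G38910 in the fit, and their part in the result was not tested. The AT1G12080 signal was 507 on aha1-7, while the aha1-6 arrays, at 1526 and 1151, lay within the aha2 range of 1039 to 1747. Of 4 root hair markers 2 were measured, EXPA7 and EXPA18, expansins that loosen the wall of growing root hairs. Their summed signal was 712 and 745 on the aha1-6 arrays and 382 on aha1-7, 719 to 935 in wild type and 939 to 1069 in aha2. Without aha1-7 the aha1 sums lay beside the lower wild type array. Their median log2 fold change was -0.44 in aha1 and 0.44 in aha2, with neither passing. Between aha1 and aha2 the difference was -0.94 for EXPA7 and -0.81 for EXPA18. Neither passed there (limma, adjusted p = 0.415 and 0.485, unadjusted p = 0.0228 and 0.0623). The root hair sums were highest in aha2, as AT5G38910 was, with aha1 and wild type overlapping, and their part in the result was not tested. None of the 4 seed and 2 pollen markers had a named probe set.

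By the correlation of normalized log2 values over the 8 arrays, the genes most like AT5G38910 among 5893 brighter single-gene probe sets were AT2G38550 (r = 0.976), BUB3.1 (0.973), AT3G19390 (0.968), AT4G33480 (0.967) and CPI1 (0.955). BUB3.1 is a protein of the spindle checkpoint, and CPI1 is a cyclopropyl isomerase of sterol synthesis. Their log2 differences between aha1 and aha2 were small beside the -2.46 of AT5G38910, running from -0.78 for AT4G33480 to -0.44 for AT2G38550. The shared probe set was most like AT4G33480 (r = 0.963), AT2G38550 (0.953) and AT1G64510 (0.952), so its first 2 genes are also among the 5 of AT5G38910. For AT5G38960 the closest were AT1G49650 (r = 0.967), AT4G23740 (0.913) and AT2G31110 (0.913). These rested on the low aha1-6 array of the second set and were 0.66, 0.64 and 0.53 without it. With the trend with gene length removed, the correlation with AT2G31110 was 0.22. The same step left the correlations of AT5G38910 between 0.89 and 0.96 and those of the shared probe set between 0.82 and 0.90. The arrays share their groups and sets, and the correlations are descriptions of likeness over these arrays.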

How the data were processed

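The authors deposited a linear intensity for each probe set, and the submitters' processing notes name Affymetrix Expression Console 1.1. How probes were summarised is not given in the sources used. After an offset of 1 and log2, quantile normalization was applied across the 22810 probe sets, and the 64 controls were dropped. In limma 3.58.1 (R 4.3.3), lmFit and eBayes fitted group plus set over the 8 arrays, which left 4 residual degrees of freedom. Benjamini-Hochberg adjustment covered the 22746 tested probe sets, with 0.05 as the threshold. The number of arrays limits the precision, and array medians ran from 358 to 410 signal units. No pair of arrays shared more than 0.00438% identical signals.

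Names came from the platform annotation, with symbols updated through the RefSeq table of TAIR10.1. It gave 1 gene for 13513 of the tested probe sets, several for 503 and none for 8730. For a gene with several probe sets, the brightest was used. The files name no genome build, so no coordinates are given, and gene and promoter sequences were not used here.

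The text names every member, every gene between AT5G38800 and AT5G39000 with its own probe set, up to 6 other germin-like genes with the highest mean signal, and the 5 (AT5G38910) or 3 genes with the highest correlation. Up to 2 members of the enzyme lists were to be named, and the third measured oxidase is named as well. The members, gene lists and naming rule were chosen with earlier results of these data known. Alternatives were no further normalization, median centring, an offset of 16, the dimmest 50% of probe sets left out, no set term, set as a random block, each array left out in turn, and a trend with gene length removed. The dimmest 50% and aha1-7 left out together was added after the data had been seen.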

Additional observations from a re-analysis of the deposited data

How the results depend on the processing

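AT5G38910 and the shared probe set kept their direction in each comparison under all 16 alternatives run. AT5G38910 ran from -1.32 to -0.76 in aha1 and from 1.14 to 1.70 in aha2 against wild type, and the adjusted p of the latter ran from 0.0146 to 1.0. The shared probe set ran from -1.24 to -0.84 and from 0.08 to 0.38. The count of probe sets past the threshold was 0 in every comparison and with each array left out. With the dimmest 50% left out it was 3 for aha2 against wild type and 20 for aha1 against aha2, and with aha1-7 left out as well it was 28 for aha1 and 61 for aha2 against wild type and 358 between the mutants. Fewer probe sets were tested there, and the part of the aha1-7 array was not separated further. Values near 0 changed sign. AT5G38900 in aha1 against wild type was -0.011 without the set term and -0.0077 with set as a random block (estimated correlation 0.031), and ran from -0.11 to 0.13 with each array left out. AT5G38960 in aha2 against wild type was -0.022 with the length trend removed and ran from -0.091 to 0.38 with each array left out. AT3G10080 ran from -0.12 to 0.11 in aha2 against wild type with each array left out, and was 0.054 in aha1 against aha2 with the length trend removed. The cause of these reversals was not tested. The set was a term of the fit, and arrays were also compared within sets, while the labels give no replicate numbers that could pair samples further. The low signal of AT5G38960 and the 2 wild type arrays limit what could be detected.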
